A study of Gasterosteus aculeatus with 12 samples.

Results

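Of the 12 sequenced stickleback embryos, 7 carried many more heterozygous sites along chromosome VII than the others, and these 7 embryos are described here beside the other 5. The classes were chosen by the measured allele counts themselves. A chromosome VII site was eligible when it was listed in all 12 embryos with more than 12 reads in each, and an embryo was called heterozygous there when the rarer allele held more than 10% of its reads. Embryos with more than 4500 heterozygous sites among the 8964 eligible ones are called high-heterozygosity embryos (embryos 1, 2, 5, 7, 8, 9 and 11), and the others low-heterozygosity embryos (embryos 3, 4, 6, 10 and 12). All 12 are labelled as whole F1 embryos of the LITC (Little Campbell River) population crossed with the high-spine line, which was bred from a Boulton Lake by Bodega Bay cross, and were frozen at stage 19/20, 72 hours after in vitro fertilization, having been raised in 10% seawater at 16 °C. They share 1 label, which names no treatment, so the chromosome VII class is the only difference used to group them. Per the paper, the embryos came from another cross than its spine and fin samples. Beyond that, the number of parents and clutches behind the embryos is not given in the sources used here. Which of the parents passed on the haplotypes that differ was not determined.

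Each F1 embryo receives a single copy of every chromosome from each parent. A parent that is not inbred has a pair of different copies (haplotypes) to give, so siblings can differ in long stretches that were inherited whole between crossover points. A sequence difference that alters the transcription of the chromosome it sits on acts in cis and should show as unequal use of the alleles within a heterozygote, whereas a difference that acts through a diffusible product acts in trans and can reach genes on any chromosome. Whole-embryo RNA mixes all tissues, so fewer cells of a type and less RNA per cell cannot be told apart.

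The values are read counts at single-nucleotide sites on the gasAcu1-4 assembly. Sites and windows are given by position because the files name no genes, and no annotation of this assembly was used here. For the same reason the labelled tissue was not checked against marker genes. Between 16302333 and 27003127 reads were counted per embryo, and 321670 of 540774 sites were listed in every embryo. A read is counted at each listed site it spans, so counts at neighbouring sites are not independent molecules. At the shared sites, the high-heterozygosity embryos had 16017068 to 23742174 reads and the low-heterozygosity embryos 21183869 to 26512856. The embryo with the fewest reads, embryo 7, belongs to the high-heterozygosity class.

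The classes were far apart on the measure that defined them. The high-heterozygosity embryos had 5825 to 6044 heterozygous chromosome VII sites, with a median of 6029, and the low-heterozygosity embryos had 3243, 3230, 3281, 3235 and 3206. The embryo just inside the limit was embryo 2 with 5825 sites, and the one just outside was embryo 6 with 3281. No embryo lay near the limit of 4500. Of the 24 sequences compared, chromosome VII was the single one on which the heterozygous shares of the classes did not overlap. Chromosome XIX, the sex chromosome of this species, was above 60% heterozygous in 4 of the 7 high-heterozygosity embryos and in 2 of the 5 low-heterozygosity embryos. These values describe the classes and were not tested.

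The difference lay in a block of 17.0 Mb, chrVII:6000001-23000000. Inside it, 71.9% to 73.4% of the 5098 eligible sites were heterozygous in the high-heterozygosity embryos, against 19.7% to 19.9% in the low-heterozygosity embryos. The block is the longest run of 1 Mb windows in which every high-heterozygosity embryo lay above every low-heterozygosity embryo. In the plot of heterozygosity along the chromosome the lines of the classes part at the left edge of the block, run well apart through its middle and meet again at its right edge. With windows of 500 kb the longest such run was 8.5 Mb, chrVII:10500001-19000000, which lies inside the block.

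**Figure D1:**
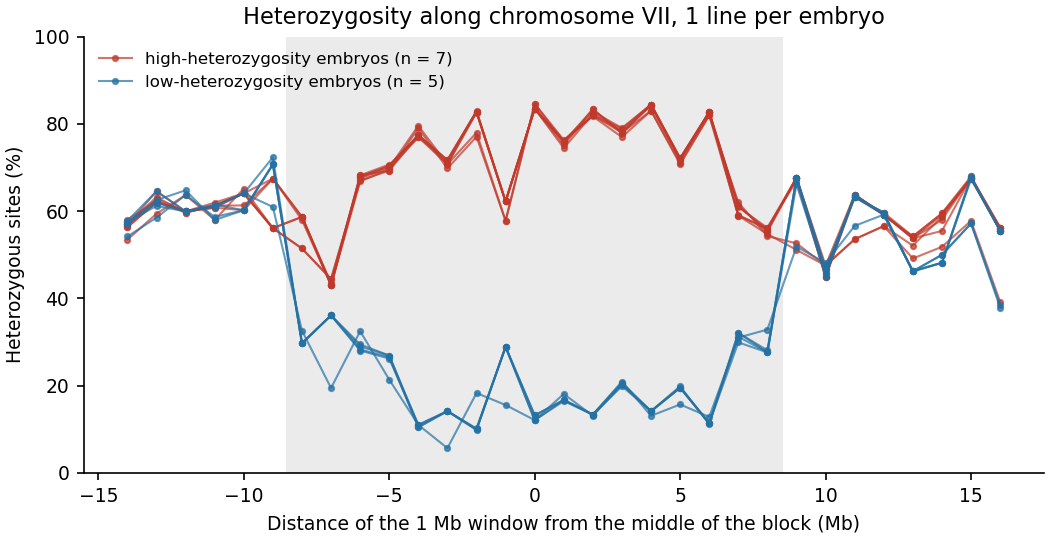
Percentage of eligible sites that were heterozygous in 1 Mb windows of chromosome VII, by distance from the middle of the block in Mb, with a line for each of the 7 high-heterozygosity embryos and the 5 low-heterozygosity embryos. The shaded block is 17.0 Mb long, and every high-heterozygosity embryo lies above every low-heterozygosity embryo in its windows.

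At most block sites the embryos fell into exactly these classes. A site was counted as class-separating when it was heterozygous in every embryo of a class and in no embryo of the other. There were 3446 such sites in the block, 67.6% of its eligible sites, and 1 among the 107505 eligible sites on other sequence (on chromosome X at position 14784429). At 1581 block sites the high-heterozygosity embryos were heterozygous and the low-heterozygosity embryos homozygous for the alternate base. At a further 1472 the low-heterozygosity embryos were homozygous for the reference base. The chromosome copy particular to the high-heterozygosity embryos therefore carried the reference base and the alternate base about equally often where it stood alone. The reverse arrangement was rarer. Heterozygosity confined to the low-heterozygosity embryos was seen at 349 sites where the high-heterozygosity embryos were homozygous for the reference base and at 44 where they were homozygous for the alternate base.

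The calls were clear-cut, with 1.13% of block calls having a rarer-allele share between 5% and 15%. Transitions made up 58.5% of the class-separating sites, against 57.6% of the other eligible block sites and 59.0% of eligible sites on other sequence. Reads of low mapping quality were 2.92%, 5.18% and 5.51% of the reads at the same sets of sites.

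A further division ran through the block, across the classes. Embryos 2, 9 and 10 shared a genotype that the other 9 embryos lacked at 511 of the block's sites, so the block held 4 combinations of inherited copies. On 1 side were 5 high-heterozygosity embryos and 4 low-heterozygosity embryos, and on the other were 2 high-heterozygosity embryos (2 and 9) and 1 low-heterozygosity embryo (10). A pair of haplotypes from each parent gives patterns of this kind, and 4929 of the 5098 eligible sites (96.7%) had such a pattern. Both divisions were taken from the genotypes at these same sites. That share was therefore largely set in advance and supports nothing by itself. Embryos of the same class on the same side of the division had the same genotype at 98.8% to 99.4% of block sites. Embryos of the same class on different sides were alike at 83.5% to 84.2%. Between the classes the likeness was 25.4% to 26.2% on the same side and 17.8% to 18.6% on different sides. Off chromosome VII, the 66 pairs of embryos were alike at 56.8% to 74.5% of sites, with a median of 65.8%. Those values average over many stretches, whereas the block is a single stretch picked for its class difference. The ranges are therefore not like for like, and no other stretch of this size was examined.

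**Figure D2:**
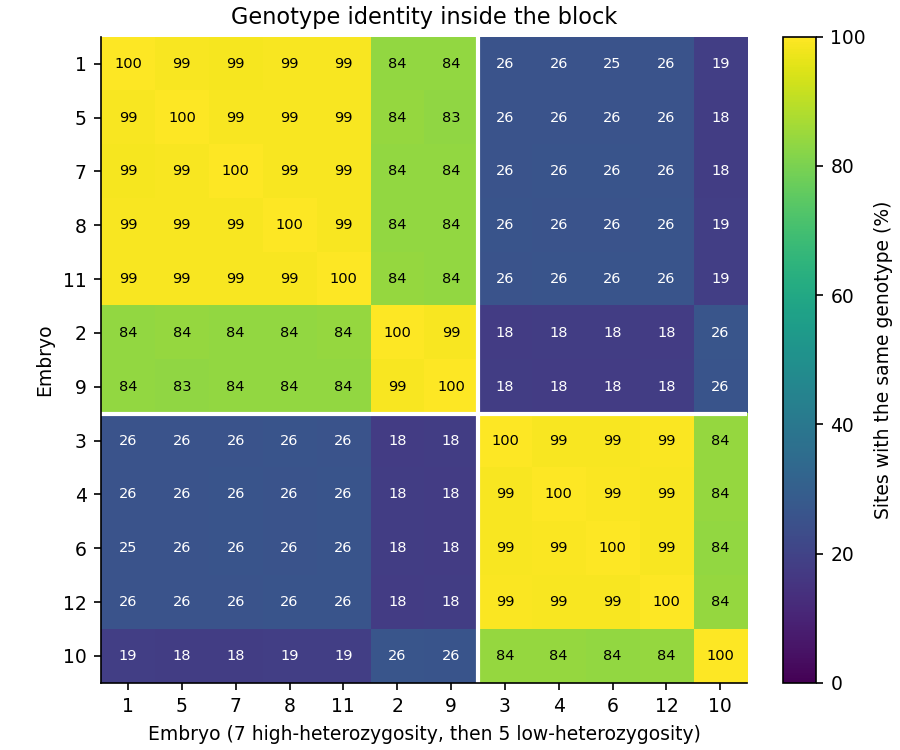
Percentage of eligible block sites with the same genotype for each pair of embryos, the 7 high-heterozygosity embryos first and the 5 low-heterozygosity embryos after them, with white lines between the classes. Pairs within a class are between 83.5% and 99.4% alike and pairs between classes between 17.8% and 26.2%.

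Within the 17 megabases of the block the class division was the commonest division of the embryos in every one, and the division of embryos 2, 9 and 10 from the rest came next in every one. No embryo changed side in either division across the block at this scale. The first class-separating site of the chromosome was at 5683048, to the left of the block, where other divisions took over: embryos 2 and 3 against the rest in the first megabase, and embryos 1, 3, 4, 8 and 12 in the fifth. To the right of the block the class-separating sites stopped at 22658831 and returned at 27496391, a gap of 4.84 Mb, with 58 and 37 of them in megabases 28 and 29. The division of embryos 2, 9 and 10 ran on through the first part of that gap. The class therefore also describes those 2 distal megabases, which lie outside the block.

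The question put to the expression data was whether embryos of the classes differed in the amount of RNA from the block and from the rest of the genome. Total reads, reference plus alternate, at all shared sites were summed in 10 kb windows and compared with edgeR's quasi-likelihood test over all 20921 windows that passed a filter on low counts. The total enters the heterozygous call as its denominator, and the choice of eligible sites through the limit of more than 12 reads in every embryo. No window in the genome had an adjusted p below 0.05, neither among the 713 of the block nor among the 18574 on other chromosomes, where the share called was 0%. The lowest adjusted p in the block was 0.423. DESeq2 called 4 of the 713 block windows (starting at 10660001, 7460001, 17480001 and 22090001) and 1 of the 18574 on other chromosomes. Below an unadjusted p of 0.05 it had 78 block windows (10.9%) and 336 on other chromosomes (1.81%). Leaving out embryo 12 brought 1 block window past the threshold.

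Before adjustment, low p-values were more frequent in the block than on the other chromosomes. An unadjusted p below 0.05 was found in 74 block windows (10.4%), against 287 windows (1.55%) on the other chromosomes. In 51 block windows (7.15%) the high-heterozygosity embryos had more reads, against a share of 0.721% on the other chromosomes, and in 23 (3.23%) they had fewer, against 0.824%. This balance depended on the fit. More reads were found in 44 of 81 such block windows without embryo 1 and in 62 of 83 without embryo 4. With the library total as a covariate it was 39 of 65. Among the other chromosomes the highest share was 2.42%, on chromosome XIII. No test was made of the difference between these shares, because neighbouring windows can belong to a single transcript. The share on the other chromosomes was 2.38% without embryo 1, 3.07% without embryo 4 and 0.86% without embryo 12, while that of the block was 11.4%, 11.6% and 7.65%.

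**Figure D3:**
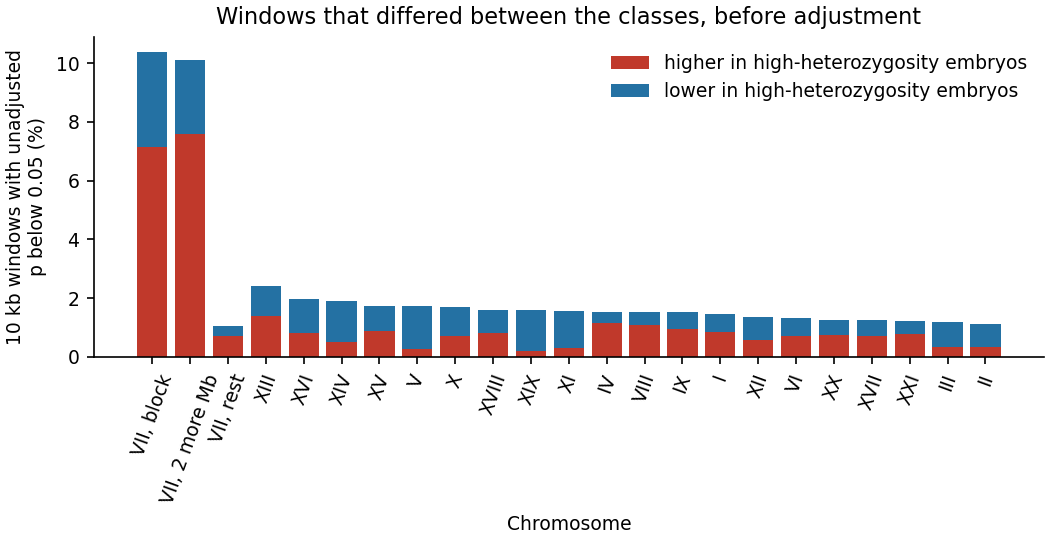
Percentage of 10 kb windows with an unadjusted p below 0.05 in the block, in the 2 distal megabases of chromosome VII with class-separating sites, in the rest of chromosome VII and on each other chromosome, split into windows higher and lower in the high-heterozygosity embryos. The block reaches 10.4% and the 2 distal megabases 10.1%, and every other bar is at or below 2.42%.

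By the share of windows with a low p, chromosome VII outside the block divided in the same way. In the 2 distal megabases with class-separating sites, 8 of 79 windows (10.1%) had an unadjusted p below 0.05, and in the rest of the chromosome 6 of 570 (1.05%) did. Windows in which every high-heterozygosity embryo lay above every low-heterozygosity embryo numbered 5 in the block (0.701%), against 0.0323% of windows on the other chromosomes. Windows with every high-heterozygosity embryo below numbered 6 (0.842%), against 0.0431%. Neither kind was found in the 2 distal megabases or in the rest of chromosome VII. Every megabase of the block held at least 1 window with an unadjusted p below 0.05. The share ran from 3.12% (1 of 32 windows) in megabase 19 to 21.7% (5 of 23) in megabase 11, against 1.55% on the other chromosomes. Evenly spread p-values would put 5% of windows below 0.05. The share on the other chromosomes lay below that, and megabases 7 (4.55%), 13 (5%) and 19 were at or below it. Megabase 21, with the most windows tested, had 11 of 68 (16.2%).

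The differences in the block were small and went both ways. The median log2 ratio of high- over low-heterozygosity embryos was 0.04 over the block windows and 0.02 over the windows on other chromosomes, with an SD of 0.28 and 0.20. The block as a whole gave 35240 ± 1733 CPM (counts scaled to the embryo's total at shared sites) in the high-heterozygosity embryos and 34112 ± 2568 CPM in the low-heterozygosity embryos (SD, n = 7 and n = 5). These totals overlapped, and a two-sided exact permutation test over the 792 arrangements of the embryos gave p = 0.384, where the smallest p it allows is 0.00253.

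The bases of a read also affect whether it maps, and at class-separating sites the classes carry different bases. When the sums were limited to sites with the same genotype in all 12 embryos, 383 block windows were tested in place of 713. Genotypes for this limit were called at every shared site, without the requirement of more than 12 reads, so some rest on few reads. Of these, 26 (6.79%) had an unadjusted p below 0.05, as had 190 of 12729 windows on other chromosomes (1.49%). These percentages are not over the same windows as those from all sites. Of the 26, 14 had more reads in the high-heterozygosity embryos. Reads at the sites of the same genotype can still span a class-separating site. The part of read mapping in the remaining difference was not tested.

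The 10 block windows with the lowest p are given as values, since none passed the adjusted threshold. The mean was higher in the high-heterozygosity embryos in 8 of them and lower in 2, and in 7 the classes did not overlap. Among all windows tested, the classes did not overlap in 1.54% of those in the block and 0.0754% of those on the other chromosomes. Picking by the lowest p favours windows without overlap, so the count of 7 supports nothing by itself. Levels are TMM-scaled CPM, and log2 ratios are high over low. The value after ± of a log2 ratio is its absolute value divided by the square root of the edgeR F statistic. It restates the test as a standard error and is not a separate measure of spread.

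The window with the lowest p was chrVII:10660001-10670000. Its levels in the high-heterozygosity embryos were 32.6 at the lowest, 35.1 at the median and 42.6 at the highest, against 20.1, 25.0, 26.1, 22.3 and 17.6 in the low-heterozygosity embryos. The classes did not overlap. Its log2 ratio was 0.72 ± 0.12 over 75 sites, with an adjusted p of 0.423. DESeq2 gave 0.71 and an adjusted p of 5.94e-05 for it. The log2 ratio was 0.55 with only the deepest site of the window and 0.48 with sites of the same genotype in all embryos.

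The alleles of this window could be told apart in the high-heterozygosity embryos. At sites where the pooled low-heterozygosity embryos showed a single base, the other base is here called class-specific. It is taken to mark the copy that the high-heterozygosity embryos alone inherited, though no single embryo had to be called heterozygous at such a site. It made up 61.0% of 3795 reads at 49 such sites of the window, and between 54.1% and 67.8% in single embryos. The class-specific copy thus gave more than an equal part of the reads in each of the 7 embryos.

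Similar ratios were found at chrVII:9950001-9960000, which gave fewer reads. Levels were 9.39, 11.4 and 13.5 (lowest, median and highest) in the high-heterozygosity embryos, against 6.86, 8.83, 9.39, 7.22 and 7.31 in the low-heterozygosity embryos. The lowest of the 7 equalled the highest of the 5 to 3 digits and lay just above it. The log2 ratio was 0.55 ± 0.14, and the class-specific base made up 63.6% of 1324 reads.

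The window chrVII:16170001-16180000 also had an uneven allele share. Levels were 101, 113 and 139 (lowest, median and highest) in the high-heterozygosity embryos, against 89.9, 86.7, 92.6, 68.3 and 81.9 in the low-heterozygosity embryos. Every high-heterozygosity embryo was above every low-heterozygosity embryo. Its log2 ratio was 0.44 ± 0.10, and 62.6% of 14598 reads carried the class-specific base, with 59.2% to 65.0% in single embryos.

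The highest levels of the 10 were at chrVII:16830001-16840000, which had 29 sites. A level sums counts over the sites of a window, so levels do not rank expression between windows. Levels were 244, 258 and 321 in the high-heterozygosity embryos, against 223, 205, 198, 203 and 206 in the low-heterozygosity embryos. The classes again did not overlap, and the 5 low-heterozygosity embryos lay close together. The log2 ratio was 0.36 ± 0.08, and the class-specific base held 57.2% of 30489 reads.

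In both windows with lower levels in the high-heterozygosity embryos, the class-specific base was the rarer one. At chrVII:17480001-17490000 levels were 0.99, 1.40 and 3.04 in the high-heterozygosity embryos, against 3.45, 6.82, 4.83, 3.46 and 3.16 in the low-heterozygosity embryos. The classes did not overlap, and the log2 ratio was -1.46 ± 0.28. The class-specific base held 32 of 216 reads (14.8%) at 9 sites, and in at least 1 embryo it was not seen at this depth. With so few reads per site, whether each of these sites marks the inherited copy is uncertain. At chrVII:22090001-22100000 levels were 4.07, 4.85 and 6.06 in the high-heterozygosity embryos, against 9.61, 6.14, 7.61, 8.55 and 8.81 in the low-heterozygosity embryos. Its log2 ratio was -0.69 ± 0.15, and the class-specific base held 41 of 182 reads (22.5%) at 2 sites.

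**Figure D4:**
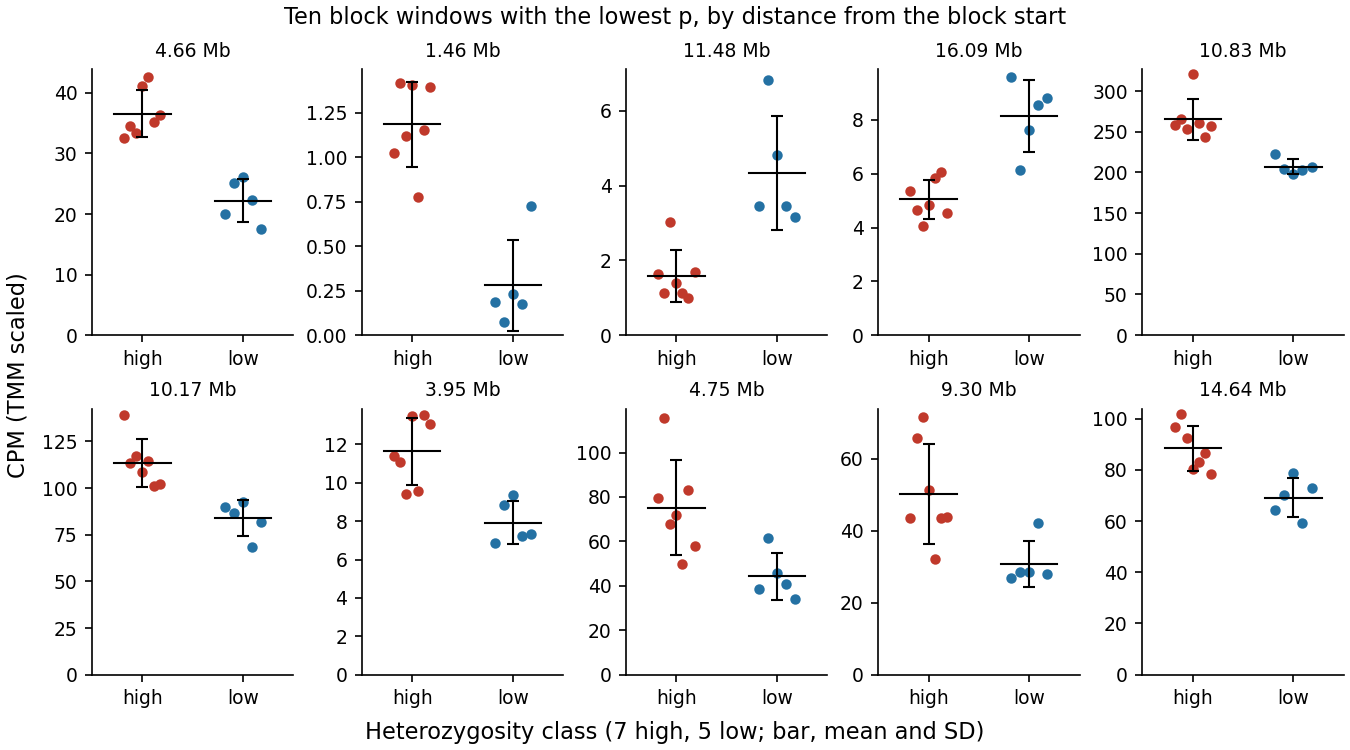
TMM-scaled CPM in the 10 block windows with the lowest p, each titled by its distance from the block start in Mb, with a point for each of the 7 high-heterozygosity embryos on the left and the 5 low-heterozygosity embryos on the right and bars for the mean and SD. The levels are higher in the high-heterozygosity embryos in 8 windows and lower in 2, and none passed the adjusted threshold.

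In 3 of the 10 windows the classes overlapped. At chrVII:10750001-10760000 levels were 49.9, 71.9 and 116 in the high-heterozygosity embryos, against 38.7, 61.6, 45.6, 40.9 and 34.2 in the low-heterozygosity embryos. The log2 ratio was 0.76 ± 0.19, and the class-specific base held 62.9% of 10787 reads. The windows at chrVII:15300001-15310000 and chrVII:20640001-20650000 had log2 ratios of 0.70 ± 0.19 and 0.36 ± 0.10, with class-specific shares of 54.1% in both. With only the deepest site of each window the log2 ratios were 0.41 at 10750001, 0.35 at 15300001 and 0.64 at 20640001. At 15300001, 25.1% of the raw reads had low mapping quality, and the share in single embryos ran from 42.8% to 65.1%.

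The tenth window, chrVII:7460001-7470000, rests on few reads. It had 17 to 34 counted reads in the high-heterozygosity embryos, against 5, 2, 6, 4 and 14 in the low-heterozygosity embryos, at 4 sites. Its log2 ratio was 2.13 ± 0.40 with an adjusted p of 0.565, and without embryo 12 it was 2.77 with an adjusted p of 0.0164. Of the raw reads there, 82.7% were of low mapping quality and stayed out of the counts, and no site told the alleles apart. In each of the other 9 windows the pooled class-specific share was on the same side of 50% as the class difference. These windows were picked for their class difference in reads that the shares also use, so this count supports nothing by itself, and 2 block windows named further on had shares on the opposite side.

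Allele shares were then set beside class differences over the whole block. Sites heterozygous in all 7 high-heterozygosity embryos and in no low-heterozygosity embryo tell the copies apart, and the class-specific base held a median of 50.1% of the reads over the 3053 such sites. Where it was the alternate base the median was 48.2% (1472 sites), and where it was the reference base 52.1% (1581 sites). The reference base was therefore slightly favoured in both sets, on whichever copy it lay. The pooled share in single embryos was 50.2% to 50.5%, close to an even share over the block as a whole.

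Single windows departed from an even share. In the 353 block windows with at least 200 reads at such sites, the class-specific share ran from 26.7% to 67.4%, with a median of 49.7%. The window chrVII:17480001-17490000, where the pooled share was 14.8%, is not among them. It was above 50% in all 7 embryos in 56 windows and below 50% in all 7 in 59. It was at least 60% in 14 windows and at most 40% in 13.

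A class-specific share can be written as a class ratio. If both copies in the low-heterozygosity embryos were each used as much as the other copy in the high-heterozygosity embryos, the expected ratio of high over low is the total divided by 2 times the reads of that other copy. This ratio and the measured ratio of total reads had a Pearson r of 0.58 and a Spearman rho of 0.55 over the 353 windows. They were on the same side of 0 in 246 windows (69.7%). Among the 37 windows that also had an unadjusted p below 0.05 they were on the same side in 35. In the 207 windows with at least 2000 such reads r was 0.70, and 25 of 25 windows with an unadjusted p below 0.05 were on the same side. With class differences from sites of the same genotype in all embryos, the corresponding counts were 14 of 19 and 9 of 12. In each of the 9 named windows with a pooled share, the ratio computed from that share was nearer to 0 than the measured one. These windows were picked for their measured difference, so this count supports nothing by itself. The computed ratio was 0.36 against 0.72 at 10660001, 0.46 against 0.55 at 9950001 and 0.42 against 0.44 at 16170001. At 16830001 it was 0.22 against 0.36, at 10750001 0.43 against 0.76 and at 15300001 0.12 against 0.70. At 20640001 it was 0.12 against 0.36, at 17480001 -0.77 against -1.46 and at 22090001 -0.63 against -0.69. The computed ratio cannot fall below the value it takes when no read carries the class-specific base. The measured ratio at 17480001 lay below that value, so no share could have matched it there.

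**Figure D5:**
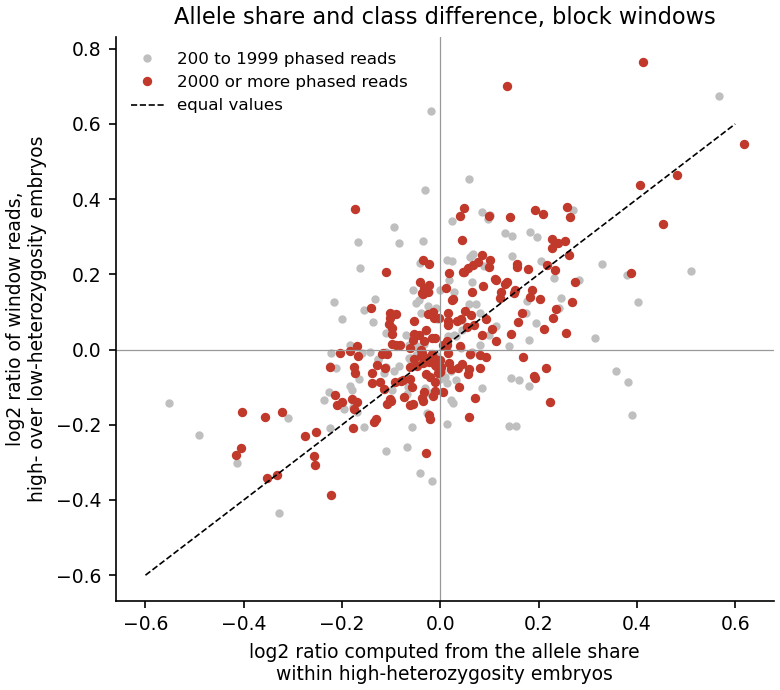
Measured log2 ratio of window reads (high- over low-heterozygosity embryos, y axis) against the log2 ratio computed from the allele share within the high-heterozygosity embryos (x axis) in 353 block windows, with windows of 2000 or more phased reads in red and the others in grey. The points scatter around the dashed line of equal values, with r = 0.58 over all windows and 0.70 over the red ones.

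These points are not independent, and no p is given. Both axes use reads of the same 7 embryos, and a preference of the mapping for the reference base moves both. With the share taken from a single embryo and the class difference computed without that embryo, r was between 0.38 and 0.53 for the 7 embryos. With class differences from sites of the same genotype in all embryos, r was 0.34 over 257 windows. It was 0.31 over the 167 of these with at least 2000 reads at sites that tell the copies apart, so it did not rise with depth there. When the class-specific base was the alternate base r was 0.49 (259 windows), and when it was the reference base 0.58 (221 windows). The relation was therefore positive in each of these sets and differed in strength.

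Among windows with at least 2000 such reads, the highest share was at chrVII:22510001-22520000. The class-specific base held 67.4% of 2191 reads there and 53.1% to 72.6% in single embryos. The computed log2 ratio was 0.62 and the measured one 0.55 ± 0.16. Levels were 15.2, 19.9 and 27.5 in the high-heterozygosity embryos, against 12.8, 13.6, 16.1, 14.3 and 15.6 in the low-heterozygosity embryos, so the classes overlapped by a small margin. At chrVII:20470001-20480000 the share was 64.2%, the computed log2 ratio 0.48 and the measured one 0.46 ± 0.13. Levels there were 50.9, 63.1 and 68.7 in the high-heterozygosity embryos, against 50.3, 51.9, 51.5, 38.6 and 31.1 in the low-heterozygosity embryos.

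At the other end, the lowest share was at chrVII:16110001-16120000, where the class-specific base held 33.3% of 4366 reads and 28.4% to 39.2% in single embryos. The computed log2 ratio was -0.42 and the measured one -0.28 ± 0.17. Levels were 21.6, 31.7 and 48.8 in the high-heterozygosity embryos, against 40.3, 33.8, 38.2, 38.2 and 37.8 in the low-heterozygosity embryos, and the classes overlapped, with embryo 5 above all the others.

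The measured ratio was nearer to 0 than the computed one in each of the 5 windows with the lowest shares. The next lowest, starting at 12930001, 12700001 and 8030001, had computed log2 ratios of -0.41, -0.40 and -0.36 and measured ones of -0.26 ± 0.13, -0.17 ± 0.16 and -0.18 ± 0.10. At 11840001, the fifth, the values were -0.35 and -0.34 ± 0.13. Of the 5 windows with the highest shares, the measured ratio was nearer to 0 in 3 and farther from 0 in 2, with 0.76 measured and 0.41 computed at 10750001. Both sets were picked by the share, from which the computed ratio follows, so these counts support nothing by themselves.

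A pair of further block windows passed the adjusted threshold only when fewer sites were used, and both had many reads of low mapping quality. At chrVII:8260001-8270000, 33.8% of raw reads were of low mapping quality. The log2 ratio there was -0.41 ± 0.16 over all 17 sites and -3.13 over the 2 sites called as of like genotype in all embryos. Those 2 sites together had 4 to 8 reads in the high-heterozygosity embryos, against 102, 79, 70, 34 and 26 in the low-heterozygosity embryos. The genotype calls of the high-heterozygosity embryos at these sites rest on those few reads. At chrVII:17640001-17650000 the log2 ratio was 0.16 ± 0.10 over 54 sites and 1.65 at its deepest site, 17647869. That site had 1066 to 1738 reads in the high-heterozygosity embryos and 452 to 555 in the low-heterozygosity embryos. The next deepest site, 24 bases away, went the other way, with 264 to 472 reads in the high-heterozygosity embryos and 640 to 859 in the low-heterozygosity embryos. Low mapping quality was assigned to 35.3% of raw reads at the deepest site in the high-heterozygosity embryos and to 58.7% in the low-heterozygosity embryos. In both windows the pooled class-specific share lay on the opposite side from the class difference over all sites. It was 59.3% of 521 reads at 8260001, with a log2 ratio of -0.41, and 43.8% of 27018 reads at 17640001, with a log2 ratio of 0.16.

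On the other chromosomes the lowest adjusted p was 0.565, and the 5 windows with the lowest p are again given as values. The first, chrXVIII:12670001-12680000, had 21 to 57 reads in the high-heterozygosity embryos, against 9, 12, 21, 9 and 11 in the low-heterozygosity embryos. Its log2 ratio was 1.64 ± 0.31, and 50.0% of its raw reads had low mapping quality. DESeq2 gave it an adjusted p of 0.00798. The windows at chrXX:1310001-1320000, chrXIII:3150001-3160000 and chrXIII:4320001-4330000 had log2 ratios of 1.45 ± 0.35, 1.48 ± 0.37 and 1.59 ± 0.40. At the second of these, 62.7% of raw reads had low mapping quality. The classes overlapped at the first and the second. At the second, embryos 9 and 11 had 1.94 and 1.92 TMM-scaled CPM, against up to 2.56 in the low-heterozygosity embryos. The third had 8 to 29 reads in the high-heterozygosity embryos, against 7, 8, 5, 7 and 4 in the low-heterozygosity embryos, at 4 sites.

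The best covered of the 5 was chrV:12470001-12480000. Levels were 27.0, 34.7 and 38.0 in the high-heterozygosity embryos, against 54.6, 38.2, 39.6, 49.5 and 60.2 in the low-heterozygosity embryos. The classes did not overlap by a narrow margin, and the log2 ratio was -0.50 ± 0.12. The embryos also differ in what they inherited elsewhere, and such differences can run along with the class. Their part in these windows was not tested, apart from the heterozygosity of chromosome XIX and the division of embryos 2, 9 and 10, which as covariates left the number of windows called at 0.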

How the data were processed

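The deposited values are counts. Per the methods and labels, the authors made 1 stranded mRNA library per embryo, trimmed reads with Trim Galore and cutadapt 2.4, mapped them to gasAcu1-4 with STAR in 2-pass mode and counted reads per allele and site with GATK 4.1.4.1, without normalization or pooling. Reads of low mapping quality are listed apart from the counts.

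Sites were joined over the 12 embryos by position and alleles. Total counts at sites listed in every embryo were summed in 10 kb windows and fitted with edgeR 4.0.16 (TMM, filterByExpr, quasi-likelihood test, class as the single term), with Benjamini-Hochberg adjustment over all windows of the genome and a threshold of 0.05. The fit was tested on simulated counts. DESeq2 1.42.0 was the other tool. Block totals were compared with an exact permutation test over embryos. Windows were named by the lowest p, 10 in the block and 5 on other chromosomes, with at most 1 per 30 kb. Pooled class-specific sites had at least 20 reads in each class, at most 2% of the base in the low-heterozygosity embryos and at least 5% in the high-heterozygosity embryos. The members, lists and tests were chosen with earlier results of these data known, and the pooled class-specific sites, as well as several alternatives, were added after seeing the data. Nothing says whether embryos came from a single clutch, and p-values measure the spread between these embryos. Python 3.11.15 and R 4.3.3 were used. No sample was left out.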

Additional observations from a re-analysis of the deposited data

Results flagged for a closer look

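Of the 34 sets of embryos examined (each class in each named window and in the class measures), 6 held an embryo far from the rest of its class by Dixon's criterion, which chance alone meets in about 1 in 20 sets. At chrVII:7460001-7470000, embryo 12 was the highest low-heterozygosity embryo with 0.726 TMM-scaled CPM, against 0.232 in the next. At chrVII:17480001-17490000, embryo 5 was the highest high-heterozygosity embryo with 3.04, against 1.70 in the next. At chrVII:16830001-16840000, embryo 7, which had the fewest reads, was the highest high-heterozygosity embryo with 320.8, against 265.3 in the next. At chrVII:16170001-16180000, embryo 1 stood above the other high-heterozygosity embryos with 139.0, against 117.2 in the next. At chrVII:15300001-15310000, embryo 10 stood above the other low-heterozygosity embryos with 42.2, against 28.7 in the next. At chrXIII:4320001-4330000, embryo 1 stood above the other high-heterozygosity embryos with 1.75, against 0.894 in the next. Why these embryos stood apart was not tested.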

How the results depend on the processing

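The 7 high-heterozygosity embryos were the same with a rarer-allele share of 20%, with more than 30 reads per site and with classes set at the largest gap. The block was 17.0 Mb also with the 20% share, and 8.5 Mb with windows of 500 kb. The number of block windows called, 0 with edgeR, was 4 with DESeq2, 1 with sites of the same call, 1 with sites of the same genotype and 1 with the deepest site of each window, and it ranged from 0 to 1 over the fits that left out an embryo (1 without embryo 12). On other chromosomes it was 1 with DESeq2 and 0 in every fit that left out an embryo. The percentage of block windows with an unadjusted p below 0.05 was 6.79 with sites of the same genotype, over 383 windows in place of 713. It was 7.65 to 11.6 without single embryos, and on other chromosomes it was 0.86 to 3.07 without single embryos. The difference in block CPM ranged from 314 to 1991 without single embryos, with exact permutation p of 0.115 to 0.788. For allele share against class difference, r was 0.70 with at least 2000 phased reads, 0.49 with the alternate base, 0.34 with sites of the same genotype, and 0.47, 0.40, 0.45, 0.44, 0.38 and 0.47 with the share from embryos 1, 2, 5, 8, 9 and 11 alone. Of 294 named-window values under the alternatives, 288 kept their side of the threshold, 6 passed it (5 with DESeq2) and 0 changed direction. The causes were not tested. No paired analysis was possible because all 12 embryos carry the same group label. Windows with few reads or many of low mapping quality are limited by depth, and annotation was not used.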
